A study of Homo sapiens with 2 samples.

Results

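Interferon regulatory factor (IRF) genes encode DNA-binding proteins that switch interferon genes and interferon-stimulated genes on or off. Of the 8 IRF genes examined here (IRF1, IRF2, IRF3, IRF4, IRF5, IRF7, IRF8 and IRF9), 2 had a GFI1 peak found with both antibodies inside them or within 50 kb, IRF5 and IRF4. That is 25%, near the 24.3% of all protein-coding genes with such a peak. The study mapped GFI1, a zinc-finger repressor of blood cells, by chromatin immunoprecipitation and sequencing in NB4, an established acute promyelocytic leukemia line carrying the PML-RARA fusion. There were 2 libraries of formaldehyde-fixed NB4 cells with no stated drug treatment, 1 with the antibody ab21061 and 1 with sc8558, raised, per the study's stated design, against separate parts of the protein. The peaks described are those of either deposited list whose midpoint lay inside the hg38 span of an IRF gene or within 50 kb of it, 3 of 7687 ab21061 peaks and 3 of 7562 sc8558 peaks. The 8 genes were among 20037 protein-coding genes. The labels are not of one voice: the protocol text names antibodies against PML/RARα, and the sc8558 sample is titled GFI2 while its antibody is given as GFI1. The antibody labels were followed.

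The IRF proteins share a DNA-binding domain that reads repeats of GAAA, the core of the interferon-stimulated response element (ISRE). IRF3, IRF5 and IRF7 are held inactive until pattern-recognition receptors signal, and then induce type I interferons and inflammatory cytokines. IRF9 is the part that recognises the ISRE in the complex that carries the type I interferon receptor signal into the nucleus. IRF1 activates and IRF2 often represses the same elements. IRF4 and IRF8 are the blood-restricted members, which bind many sites together with the ETS factors PU.1 or SpiB, or with AP-1. IRF8 is known for directing progenitors to monocytes and dendritic cells and away from neutrophils, and GFI1 for supporting the neutrophil path.

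The promoters of 3 members are shown because their start coincides with the start of the annotated gene and because none was covered by a peak. Each run is the 250 bases before the start, from RefSeq on GRCh38.p14, written along the gene's own strand. IRF1 lies on the minus strand at chr5:132490774-132491023, IRF4 on the plus strand at chr6:391502-391751, and IRF9 on the plus strand at chr14:24161015-24161264. Capitals mark every match, on either strand, to 1 of 5 motifs: AATC (the core recognised by GFI1), AAATCAC (a longer GFI1 site, which contains that core), the ISRE (a pair of GAAA tetramers with any 2 bases between them), TTCNNNGAA (the interferon-gamma activated sequence, GAS) and GAGGAAG (an ETS site of the PU.1 type).
IRF1: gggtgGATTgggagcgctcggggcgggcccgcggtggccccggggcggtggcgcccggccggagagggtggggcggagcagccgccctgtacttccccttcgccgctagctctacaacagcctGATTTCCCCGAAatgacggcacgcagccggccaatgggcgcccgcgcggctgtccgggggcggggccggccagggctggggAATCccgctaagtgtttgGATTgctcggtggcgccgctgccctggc
IRF4: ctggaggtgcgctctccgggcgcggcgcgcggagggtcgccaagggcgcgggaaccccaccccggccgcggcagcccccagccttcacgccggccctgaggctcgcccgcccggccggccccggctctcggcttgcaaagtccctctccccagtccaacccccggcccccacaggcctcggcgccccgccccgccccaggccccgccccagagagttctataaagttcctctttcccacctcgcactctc
IRF9: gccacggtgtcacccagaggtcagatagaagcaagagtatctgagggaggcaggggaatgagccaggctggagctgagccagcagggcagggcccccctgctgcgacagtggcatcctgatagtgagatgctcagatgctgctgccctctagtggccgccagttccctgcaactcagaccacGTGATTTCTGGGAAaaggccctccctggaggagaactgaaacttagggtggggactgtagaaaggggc
The IRF1 promoter held 4 matches to AATC and 1 GAS match, which shares a base with the AATC match at 124 to 127 bases before the start. The IRF9 promoter held 1 AATC match, at 63 to 66 bases, which is part of a match to the longer GFI1 site and shares a base with a GAS match. The IRF4 promoter held none of the 5 motifs. Over all 35116 promoter windows of this length, 64.8% held AATC, 2.74% AAATCAC, 3.02% the ISRE, 6.57% the GAS and 11.2% the ETS site, so an AATC match is common. RefSeq promoter windows were found for 5 of the 8 members. Those of IRF5 and IRF8, 4 and 2 windows, begin inside the annotated gene and are not printed, and the first of IRF5 and both of IRF8 held AATC. None of the windows of these 5 genes was overlapped by a peak, where 1.75% of all windows of 300 bases were overlapped by an ab21061 peak and 1.8% by an sc8558 peak. The nearest peak edge was 2.55 kb away for IRF4, 6.86 kb for the closest IRF5 window, 13.1 kb for IRF8, 63.3 kb for IRF1 and 116 kb for IRF9. The letters under the peaks themselves were not analysed here.

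With each antibody 3 of the 8 genes had a peak inside the span or within 50 kb, IRF4, IRF5 and IRF8 with ab21061 and IRF3, IRF4 and IRF5 with sc8558. Among all protein-coding genes 31.7% had an ab21061 peak and 32.4% an sc8558 peak in such a window. A shared region, made by merging overlapping peaks of both lists, was present at 2 of 8 IRF genes (25%), against 24.3% of all protein-coding genes. The members' shares lay near this background and are therefore no result about the family. The 8 windows spanned 967.12 kb with 0.31 peaks per 100 kb for each antibody, against 0.286 per 100 kb over the windows of all protein-coding genes, and shared regions stood at 0.207 against 0.186. Each antibody had 1 library, so no difference was tested and all values describe these libraries.

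**Figure D1:**
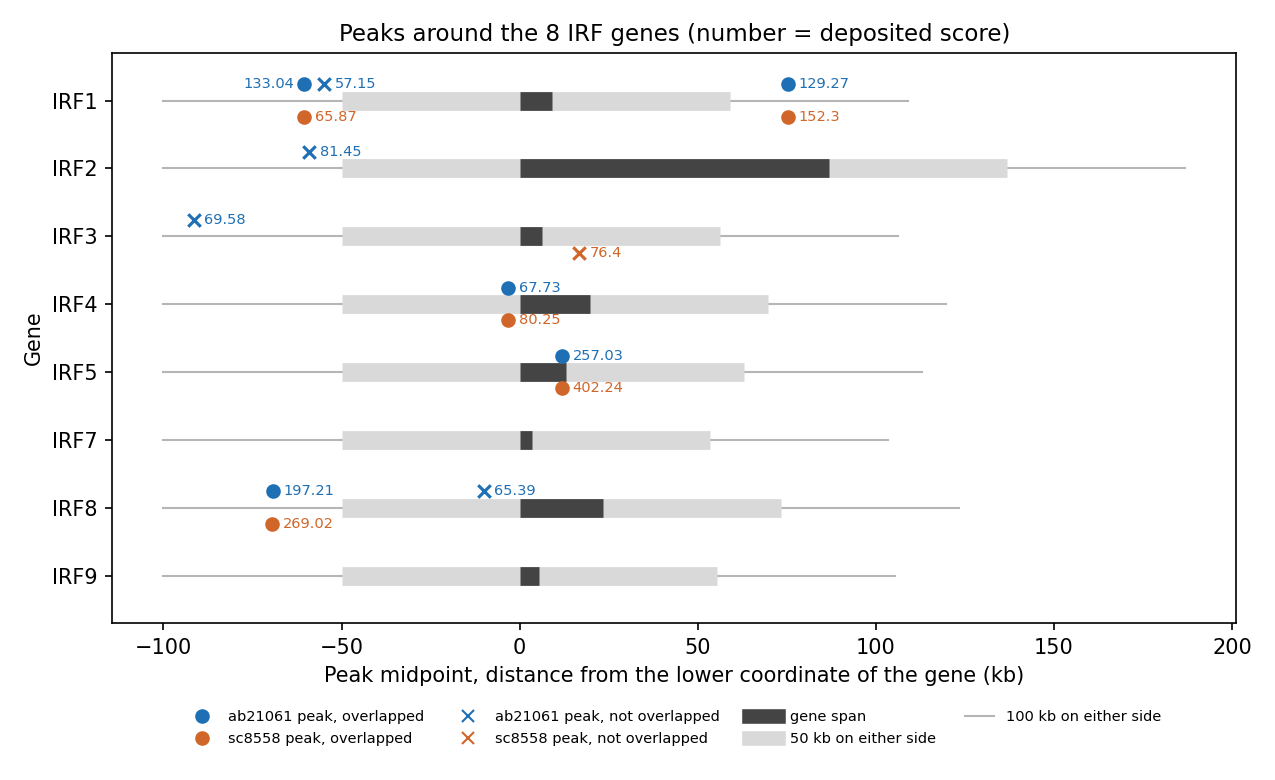
Peaks around the 8 IRF genes, each row a gene drawn to scale with lower coordinates to the left. The horizontal axis is the distance of the peak midpoint from the lower coordinate of the gene in kb, circles are peaks overlapped by the other antibody, crosses are peaks that were not, and numbers are deposited scores. Pairs of circles stand at IRF4 and IRF5 inside the pale 50 kb bars, and at IRF1 and IRF8 outside them.

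IRF5, the activator of inflammatory cytokine genes downstream of Toll-like receptors, held the strongest peaks of the family. The ab21061 peak, spanning 128948174 to 128949655 of chromosome 7, scored 257.03, and the sc8558 peak, spanning 128948390 to 128949660, scored 402.24. The score is the authors' value from the peak caller, a measure of confidence in which higher values mark firmer peaks, and its levels cannot be compared between lists. Within the lists 9% of ab21061 peaks and 4.09% of sc8558 peaks scored higher, so both stood high in their lists. The peaks were 1482 and 1271 bp wide, against list medians of 776 and 746 bp, and overlapped over 1266 bp with midpoints 111 bp apart. Of the 4853 shared regions, 549 (11.3%) ranked better by the worse of their ranks in the lists.

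The IRF5 peaks lay in the last part of the gene and not at its starts. IRF5 runs on the plus strand of chromosome 7 from 128937032 to 128950038, and the midpoints lay 11.9 and 12 kb from the lower coordinate and 1.12 and 1.01 kb before the end. Both peaks lay wholly within the gene. Exons and introns were not separated in the gene table used, so which of them the peaks covered is not given. The next gene, TNPO3, which encodes a nuclear import receptor, begins on the map at 128954185 and is transcribed toward IRF5. Inside their own spans 8.35% of all protein-coding genes held a shared region, as did 1 of the 8 IRF genes.

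**Figure D2:**
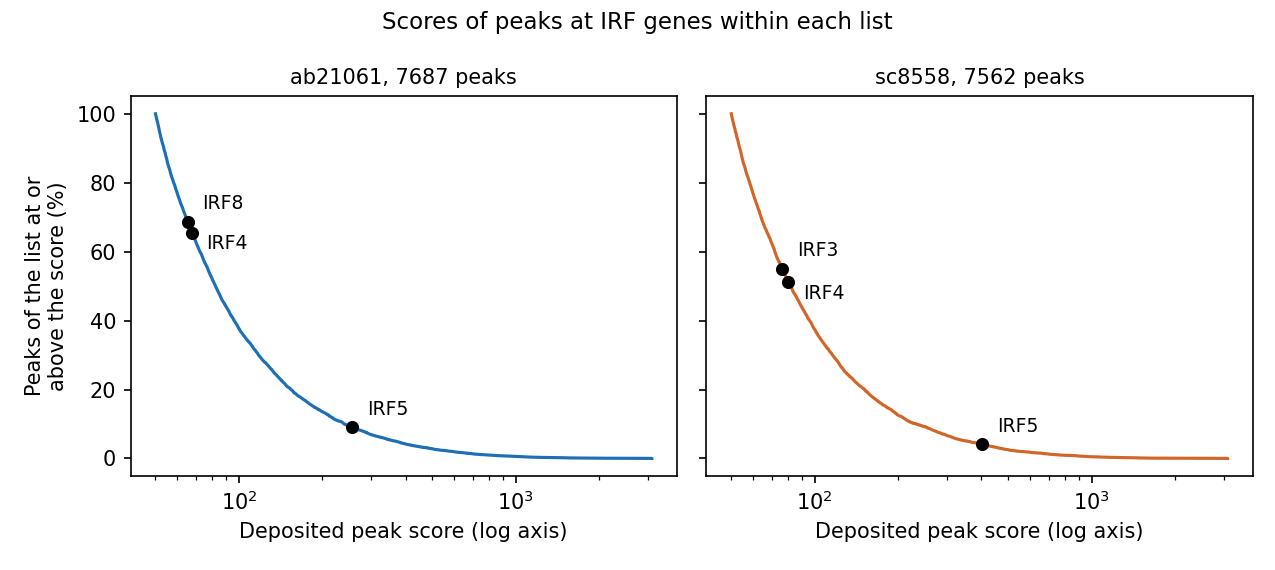
Share of the peaks of a list (vertical axis, %) at or above a given deposited score (horizontal log axis), for ab21061 on the left and sc8558 on the right, with the peaks at IRF genes as black points. IRF5 sits in the tail at 257.03 and 402.24, whereas the other 4 points lie between 65.39 and 80.25.

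IRF4, which drives plasma cell, T helper and some macrophage programmes, had a shared region upstream of its start. The ab21061 peak, on chromosome 6 from 388246 to 388952, scored 67.73, and the sc8558 peak, from 388291 to 388867, scored 80.25. The gene runs on the plus strand from 391752 to 411443, so the midpoints lay 3.15 and 3.17 kb before it, 20 bp from each other. The sc8558 peak lay entirely within the ab21061 peak. These were peaks of low to middling confidence, with 65.5% of ab21061 and 51.2% of sc8558 peaks scoring higher. Their widths, 707 and 577 bp, were below the list medians of 776 and 746 bp, only slightly so for ab21061. IRF4 was the protein-coding gene nearest to them, and the only other one within 50 kb of IRF4 was DUSP22, a phosphatase gene on the far side of the peak.

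IRF8, the monocyte and dendritic cell regulator, had a single-antibody peak inside the window. The ab21061 peak, on chromosome 16 from 85888690 to 85889434, scored 65.39 and lay 10.1 kb before the gene, which runs on the plus strand from 85899162 to 85922609. No sc8558 peak overlapped it, and the nearest sc8558 midpoint was 59.3 kb away. Peaks of this confidence often lacked a partner: of 1076 ab21061 peaks with scores from 60 to 70, 465 (43.2%, exact 95% interval 40.2 to 46.2) were overlapped. A much firmer shared region lay further upstream, just outside the window at 69.3 kb from the gene. It spanned 85829359 to 85830371, and its ab21061 and sc8558 scores were 197.21 and 269.02, with 13.9% and 8.12% of the lists higher. The nearest protein-coding gene to this region was COX4I1, a subunit gene of the respiratory chain, about 22.8 kb away, so the region lies between the genes and its assignment to either was not tested.

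IRF3, the ubiquitous factor activated by TBK1 downstream of STING and MAVS, had a single-antibody peak too. The sc8558 peak, on chromosome 19 from 49675856 to 49676694, scored 76.4, with 55.1% of the list higher. Its midpoint lay 10.4 kb beyond the higher coordinate of IRF3 (49659572 to 49665857) and inside PRMT1, an arginine methyltransferase gene whose lower coordinate, 49676153, falls within the peak. No ab21061 peak overlapped it, and the nearest ab21061 midpoint was 108 kb away. Of 825 sc8558 peaks with scores from 70 to 80, 479 (58.1%, 54.6 to 61.5) were overlapped. The window of IRF3 holds 7 other protein-coding genes, BCL2L12 and PRMT1 among them, so a peak in it need not concern IRF3.

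IRF1, IRF2, IRF7 and IRF9 had no peak of either list inside the span or within 50 kb. IRF1, a gene induced by interferon gamma, came closest. Its gene on chromosome 5, from 132481609 to 132490773, was flanked by shared regions at 60.4 kb on the lower side and 66.2 kb on the higher side. The first spanned 132420756 to 132421605, with an ab21061 score of 133.04 and an sc8558 score of 65.87. The second, from 132556516 to 132557496, scored 129.27 and 152.3. It covered the RefSeq promoter window of RAD50, a DNA repair gene, and an end of IL5, the eosinophil cytokine gene. An ab21061 peak of 57.15 without overlap lay 54.8 kb from IRF1.

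IRF2, the antagonist of IRF1, is the longest member at 86.8 kb, yet its nearest ab21061 peak lay 59 kb away with a score of 81.45, and its nearest sc8558 peak 210 kb away with a score of 60.93. Those 2 peaks lay on opposite sides of the gene and neither was overlapped. IRF7, the amplifier of type I interferon production, was farthest from any peak, at 264 kb with both antibodies. The region nearest to it, on chromosome 11 from 348064 to 348900 with scores of 65.44 and 126.35, lies 27.6 to 39.1 kb from IFITM1, IFITM2 and IFITM3, interferon-induced antiviral genes named here after their values were seen. IRF9 had its nearest ab21061 peak at 231 kb (score 55.15) and its nearest sc8558 peak at 111 kb (score 61.33). IRF7 and IRF9 sit in gene-rich stretches with 7 and 14 other protein-coding genes within 50 kb.

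**Figure D3:**
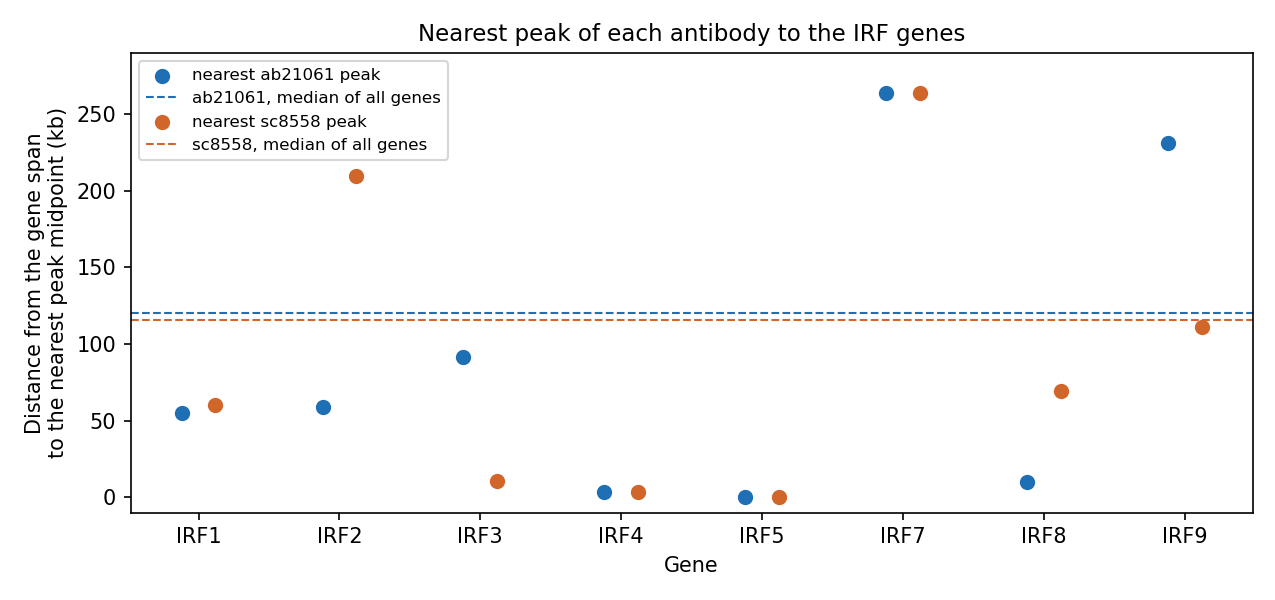
Distance in kb (vertical axis) from the span of each IRF gene to the nearest peak midpoint of ab21061 (blue) and sc8558 (orange), with dashed lines at the medians of all protein-coding genes, 120 and 116 kb. IRF4 and IRF5 have both points near 0, whereas both points of IRF7 lie at 264 kb.

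The order of the members by distance was similar with both antibodies at its ends and differed in the middle. IRF5 (0 kb) and IRF4 (3.15 and 3.17 kb) were closest to a peak with both, and IRF7 was farthest. IRF8 lay closer with ab21061 (10.1 kb) than with sc8558 (69.4 kb), and IRF3 the reverse (91.5 and 10.4 kb). The median over the 8 genes was 56.9 kb for ab21061 and 64.9 kb for sc8558, against 120 and 116 kb for all protein-coding genes. For shared regions it was 150 kb against 180 kb.

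Overlap between the antibodies was counted last. In each list 2 of the 3 peaks (66.7%, exact 95% interval 9.43 to 99.2) were overlapped by the other, against 63.7% of all ab21061 and 65% of all sc8558 peaks. The interval covers counting error only, and 3 peaks are too few to show a difference. The counts moved with the window and the score. Within 10 kb both antibodies marked IRF4 and IRF5, 2 of 8 genes, beside 17.4% of all genes with an ab21061 peak, 17.8% with an sc8558 peak and 12.8% with a shared region. Inside the span IRF5 remained with both, beside 11.6% and 11.7% of all genes. Within 100 kb 6 of 8 genes had an ab21061 peak, 5 an sc8558 peak and 4 a shared region (IRF1, IRF4, IRF5 and IRF8), beside 45.3%, 46.4% and 35.9% of all genes. When peaks scoring under 100 were left out, IRF5 was the 1 gene of 8 with a peak within 50 kb, beside 16.3% of all genes for ab21061, 16.5% for sc8558 and 12.6% for shared regions.

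**Figure D4:**
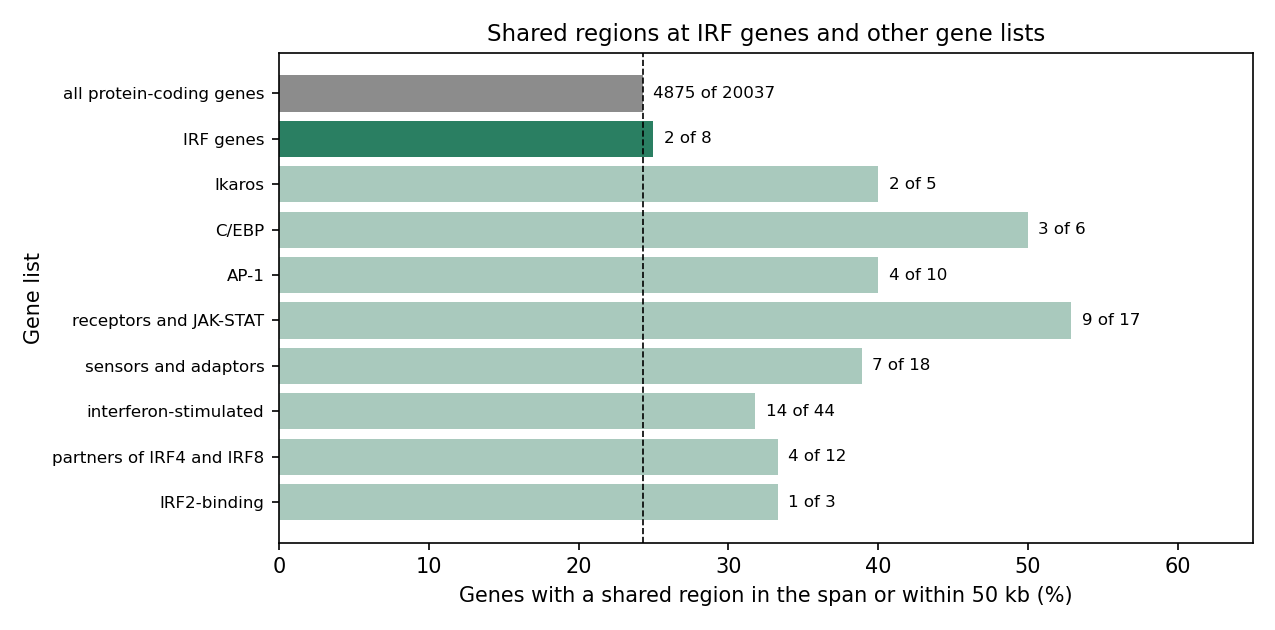
Share of genes (horizontal axis, %) with a shared region inside the span or within 50 kb, for all protein-coding genes (grey, dashed line), the IRF genes (dark green) and the other lists (pale green), with counts beside the bars. The IRF bar, 2 of 8, ends next to the dashed line at 24.3%.

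Other gene lists, named after families of blood transcription factors, were counted in the same way. Within 50 kb shared regions were present at 2 of 5 Ikaros genes, 3 of 6 C/EBP genes and 4 of 10 AP-1 genes, beside 24.3% of all genes. The C/EBP list goes by gene symbol, CEBPZ included, so it is not a strict protein family. Per 100 kb of window these lists had 0.879, 0.971 and 1 ab21061 peaks and 0.879, 1.46 and 0.911 sc8558 peaks, beside 0.31 at the IRF genes and 0.286 over all genes for each antibody. IKZF1 alone supplied 5 of the 8 ab21061 and 6 of the 8 sc8558 peaks of the Ikaros list. For shared regions the values were 0.44, 0.647 and 0.729, beside 0.207 at the IRF genes and 0.186 over all genes. The lists are short, no difference was tested, and the order changed with the window. Within 10 kb 20% of Ikaros, 33.3% of C/EBP and 30% of AP-1 genes had a shared region against 25% of IRF genes. Inside the span 0 of 6 C/EBP genes, 20% of Ikaros and 10% of AP-1 genes did, against 1 of 8 IRF genes. The Ikaros and AP-1 shares in the span were 1 gene each. Among all genes the shares were 12.8% within 10 kb and 8.35% inside the span. IKZF1, a lymphoid and myeloid regulator that also partners IRF proteins, had a shared region inside the gene with scores of 225.27 and 318.58, below those of IRF5 in both lists. IKZF4 (78.69 and 92.34), CEBPZ (156.53 and 110.45), CEBPG (136.72 and 100.44), CEBPE (88.03 and 113.3), JUN (182.36 and 162.51), FOSL2 (234.61 and 152.01), FOS (211.5 and 121.58) and BATF3 (61.36 and 55.36) were the others, by their best-ranked region. Those regions lay 29.5, 11.6, 1.11, 4.08, 31.9, 31, 5.57 and 49.5 kb from the gene, in that order. FOSL2 had another shared region inside the gene. The region of CEBPZ is also counted for EIF2AK2 in the interferon-stimulated list below.

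The genes that act before and after the IRF proteins were counted in the same 50 kb windows, again beside 24.3% of all genes, and no difference from the IRF genes was tested. The order of the lists depended on the window: within 10 kb shared regions were present at 11.1% of sensors and adaptors and 11.4% of interferon-stimulated genes, against 25% of IRF genes and 12.8% of all genes. Receptor and JAK-STAT genes lay above the IRF genes in every window. The shares were 29.4% against 12.5% inside the span, 47.1% against 25% within 10 kb and 64.7% against 50% within 100 kb. Among all genes they were 8.35%, 12.8% and 35.9%, in that order. Within 50 kb 9 of 17 genes of interferon receptors and JAK-STAT signalling had a shared region, with a median distance of 45.2 kb. JAK2 (215.27 and 198.06), IFNGR1, a chain of the interferon gamma receptor (197.49 and 389.78), TYK2 (252.18 and 181.58) and IFNAR1, a chain of the type I receptor (170.04 and 254.49), ranked best. Their best-ranked regions lay 45.2, 48.7, 4.06 and 1.64 kb from the gene, in that order. IFNGR1 had another shared region inside the gene. Neighbouring receptor genes on chromosome 21 share regions. Of 18 sensors and adaptors that lead to IRF3, IRF5 and IRF7 there were 7, with a median of 61.7 kb, led by IRAK1 (278.08 and 255.06), CGAS, the cytosolic DNA sensor (273.94 and 229.85), MAVS (191.84 and 242.65) and TLR8 (65.7 and 87.72). The best-ranked regions of these genes lay 28.6, 3.23, 35.3 and 49.2 kb away, in that order. CGAS had another shared region inside the gene. Of 44 interferon-stimulated genes, which carry the sites IRF proteins bind, 14 had a shared region within 50 kb. Over the 44 genes the median distance was 114 kb, and only 12 distinct regions lay behind the 14. The best-ranked, inside IFIT3 and 24.4 kb from IFIT2, scored 776.7 and 895.56, above every peak at an IRF gene. CXCL10 and CXCL11 shared the next, at 36.5 and 23.9 kb, with scores of 464.36 and 409.19.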

How the data were processed

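ChIP-seq of NB4 cells was deposited as 1 peak list per antibody, with no replicate and no header. Bowtie2 2.2.9, MACS 1.4.2 and hg38 are named in the submitters' processing notes. Options, read filters and the control were not given in the sources used here, and depth is unknown. The deposited score of each peak, from 50.01 to 3100 in both lists, is the authors' value. It was used to rank and filter peaks within a list.

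The members and gene lists were chosen with earlier results of these data known. Gene spans came from the RefSeq table of GRCh38.p14. Starts were converted to 1-based positions. A peak belonged to a gene if its midpoint lay in the span or within 50 kb, and peaks overlapping by at least 1 bp were shared. Intervals are exact Clopper-Pearson at 95%. Overlap and window counting were tested on simulated data. Alternatives were windows of 0, 10 and 100 kb, a score of 100 or more, any overlap with the window, overlap of 50% of both peaks, and peaks nearest to a member. Some genes of the planned lists are not reported here. The genes named are all 8 members and, per list, up to 4 with the best-ranked shared region. EIF2AK2, IFITM1, IFITM2, IFITM3, SPI1 and neighbouring genes of the peaks were named after their values were seen. Scripts ran in Python 3.11.15 with pandas 2.3.3 and numpy 2.4.6, and intervals came from scipy 1.17.1.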

Additional observations from a re-analysis of the deposited data

How the results depend on the processing

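The counts rest on few peaks. In the main setting there were 3 ab21061 and 3 sc8558 peaks, 2 shared regions and 2 genes with one. With 100 kb windows these became 9, 6, 5 and 4. Inside gene spans, and also when peaks scoring under 100 were left out, each of the 4 counts was 1, since fewer peaks enter by construction. The overlapped share, 66.7% in both lists, became 100% for both within 10 kb, inside gene spans and without peaks scoring under 100. It also became 100% for sc8558 when peaks nearest to another gene were left out. The peaks without overlap lay 10.1 kb from IRF8 and 10.4 kb from IRF3, so they fell just outside the 10 kb window. Of the 42 values under alternatives 23 stayed within 1.5 times the main count or within the interval of the main share. No paired analysis was possible because each antibody had 1 library and the values come from no test. Unknown depth limits any reading of single-antibody peaks.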

Other observations

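Proteins that bind DNA beside IRF4 and IRF8 had shared regions inside the span or within 50 kb at 4 of 12 genes, where 24.3% of all protein-coding genes did. They were IKZF1 (scores 225.27 and 318.58), ETV6, an ETS repressor (181.3 and 214.41), JUN (182.36 and 162.51) and BATF3 (61.36 and 55.36). The regions of IKZF1 and ETV6 lay inside the gene, those of JUN and BATF3 31.9 and 49.5 kb away. IKZF1, JUN and BATF3 were already counted in the Ikaros and AP-1 lists. SPI1, which encodes PU.1, the main partner of IRF8 in myeloid cells, had none in that window and is named after its values were seen. Within 100 kb SPI1 did have a shared region. Of the 3 genes encoding IRF2-binding proteins, IRF2BP2 had a shared region, 3.23 kb from the gene on chromosome 1 from 234612428 to 234614384, with scores of 248.4 and 159.04. IRF2BP2 is a corepressor of IRF2. The window of IRF2BP2 held 2 shared regions, 4 ab21061 peaks and 2 sc8558 peaks, and that of IRF2 held no peak. Within 100 kb all 3 genes of IRF2-binding proteins had a shared region, beside 35.9% of all genes, and IRF2 had an ab21061 peak at 59 kb. No link between these genes was tested.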
